A study of Oryza sativa Japonica Group with 3 samples.

Results

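The pericentromeric regions of the rice evening complex proteins LUX and ELF3 are described here, taken from 2 deposited lists of chromatin immunoprecipitation (ChIP-seq) peaks. A called region was counted as pericentromeric where its summit of highest fold enrichment lay within 5 Mb of the centromere. This gave 87 of 177 LUX regions and 96 of 824 ELF3 regions, 183 of 1001 in all. The centromeres were taken as points on IRGSP-1.0, at 16.7, 13.6, 19.4, 9.7, 12.4, 15.3, 12.1, 12.9, 2.8, 8.2, 12 and 11.9 Mb on chromosomes 1 to 12. They were not located from these data.

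The LUX library was made from plants carrying an OsLUX transgene under its own promoter, with its genomic coding region, both untranslated regions and a c-MYC tag, by precipitation against that tag. For ELF3 the material came from wild-type Nipponbare and the antibody was custom made, and the input DNA was also wild type. All plants were whole seedlings 14 days old, grown at 28 °C under 10 h of light and 14 h of dark (short days). For each genotype 20 plants were pooled at zeitgeber time 14 (ZT14, hours after lights on). Each group is 1 library, so no spread between replicates exists, no test between conditions was possible, and the intervals given are exact 95% intervals for counting error alone. Both lists were called against the same input. Neither untagged plants under the anti-MYC antibody, nor input of the tagged line, nor ELF3 precipitated from plants without ELF3 was analysed here. The libraries held 20173598 LUX, 18357646 ELF3 and 14797701 input tags after filtering.

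In plants the evening complex is a night-time repressor of the circadian clock. LUX is its MYB-type DNA-binding subunit, and ELF3 is the scaffold that joins LUX to ELF4; in Arabidopsis the complex sits mainly at promoters. Rice centromeres are built of CentO satellite arrays and centromeric retrotransposons, and carry the histone variant CENH3. The flanking pericentromeric heterochromatin is rich in transposable elements and poor in genes, and short reads from such repeats are hard to place. The gene annotation at hand is of another assembly, so the regions are given by position, without gene names or sequence.

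LUX regions were denser near the centromeres than on the rest of the chromosomes, and ELF3 regions were sparser. The windows covered 117.8 Mb, 32.0% of the 367.6 Mb spanned by the lists, and held 49.2% of the LUX list (interval 41.6 to 56.8%) but 11.7% of the ELF3 list (9.54 to 14.0%). LUX density was 0.739 regions per Mb near the centromeres (0.592 to 0.911) and 0.360 per Mb on the rest (0.290 to 0.443), a ratio of 2.05 (1.51 to 2.78). ELF3 density was 0.815 regions per Mb near the centromeres (0.660 to 0.995) and 2.91 per Mb on the rest (2.71 to 3.13), a ratio of 0.280 (0.224 to 0.346). The LUX interval for the share lies above the share of length and the ELF3 interval below it. Of all regions in both lists, LUX made up 47.5% near the centromeres (40.1 to 55.0%) and 11.0% on the rest (8.94 to 13.4%). The uniquely mappable part of the windows was not measured, so density is per Mb of chromosome rather than per Mb that can hold tags.

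The deposited tables include a second peak call of each library, made with a different fragment length. Counted by region, the LUX density ratio was higher there, though its interval overlaps that of the first call. For LUX the fragment length was 76 bp, close to the tag length of 75 bp, against 122 bp in the first call. For ELF3 it was 197 bp against 202 bp. Both calls use the same reads, so the second is not a replicate, and the effect of the short LUX fragment length was not tested. In that call 61 of 91 LUX regions were pericentromeric, 67.0% (56.4 to 76.5%), and the density ratio was 4.31 (2.74 to 6.92). Of the 87 pericentromeric LUX regions 51 were found again in the second call, 58.6% (47.6 to 69.1%), against 21 of 90 on the rest, 23.3% (15.1 to 33.4%); over the whole list it was 40.7%. Counting the 72 regions present in both calls alone, a choice made after the data were seen, the ratio was 5.15 (3.04 to 9.01). For ELF3 the density ratio was 0.279 in the second call (0.224 to 0.345), and 95 of the 96 pericentromeric regions were found again, where the whole list gave 98.5%.

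Neighbouring called regions often belong to a single enriched place, so the lists were also joined within 5 kb. The 87 pericentromeric LUX regions then formed 55 loci and the 90 on the rest 75, a density ratio of 1.56 (1.08 to 2.23). In the second call the 61 pericentromeric LUX regions formed 31 loci and the 30 on the rest 23. No density ratio by locus was computed for that call. Near the centromeres 52 of the 87 LUX regions (59.8%) had a neighbour within 5 kb, against 23 of 90 (25.6%) on the rest. The 96 ELF3 regions formed 67 loci and the 728 on the rest 435, a ratio of 0.327 (0.249 to 0.423).

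Counted by region, the lists differed in how density followed the distance from the centromere. LUX was densest in the innermost 1 Mb on either side, with 27 regions and 1.13 per Mb (0.741 to 1.64), followed by 21 regions and 0.875 per Mb (0.542 to 1.34) from 1 to 2 Mb. Each step between 2 and 9 Mb held 10 to 14 LUX regions, 0.435 to 0.609 per Mb, with intervals that overlap one another. The step from 9 to 10 Mb held 2 LUX regions, 0.0922 per Mb (0.0112 to 0.333). Further out LUX density was 0.358 per Mb (0.245 to 0.506) from 10 to 15 Mb, 0.177 (0.0648 to 0.384) from 15 to 20 Mb and 0.516 (0.207 to 1.06) from 20 to 27 Mb, so it did not decline steadily. By locus no such rise was seen within the 5 Mb windows. The steps from 0 to 5 Mb held 13, 13, 8, 8 and 13 loci, so the last of these steps, of 23 Mb, had as many as the innermost, of 24 Mb. Beyond the windows, the steps from 5 to 10 Mb held 7, 10, 8, 10 and 2 loci. There were 25 loci in the 89.4 Mb from 10 to 15 Mb, 6 in 34.0 Mb from 15 to 20 Mb and 7 in 13.6 Mb from 20 to 27 Mb.

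ELF3 was sparsest in the innermost steps. It had 14 regions and 0.583 per Mb (0.319 to 0.979) within 1 Mb, and 11 regions and 0.458 per Mb (0.229 to 0.820) from 1 to 2 Mb. Density then reached 1.30 per Mb (0.880 to 1.86) at 3 to 4 Mb, was 0.739 (0.431 to 1.18) at 4 to 5 Mb and 1.09 (0.703 to 1.60) at 5 to 6 Mb, and reached 2.97 per Mb (2.30 to 3.78) at 8 to 9 Mb. From 15 to 20 Mb it was 4.15 per Mb (3.49 to 4.90). Within 1 Mb LUX regions outnumbered ELF3 regions, 27 to 14, whereas from 10 to 15 Mb there were 32 LUX and 311 ELF3 regions.

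**Figure D1:**
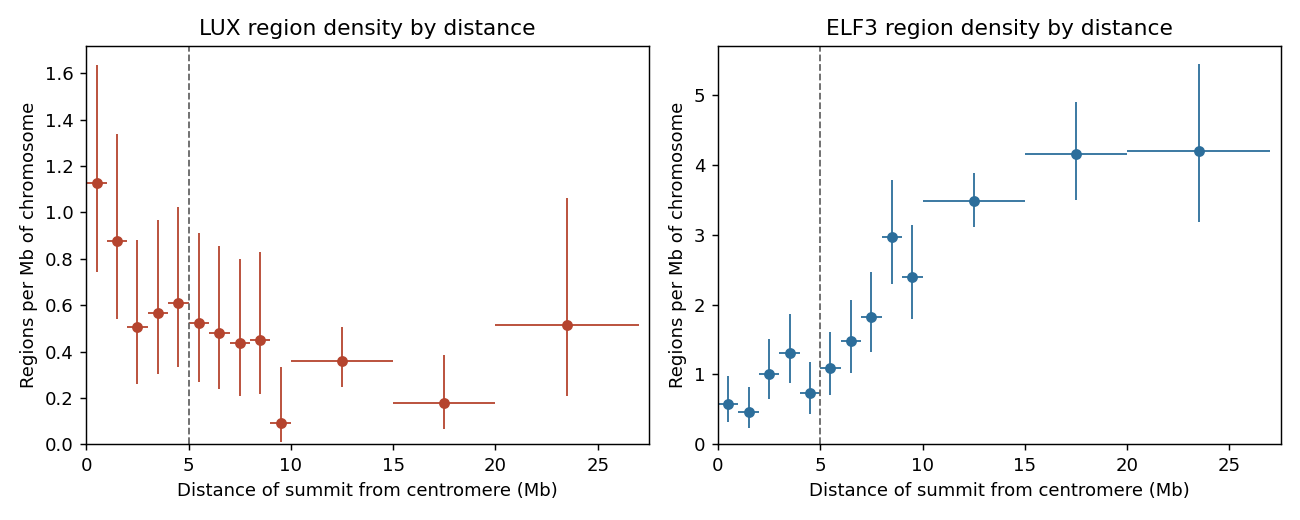
Regions per Mb of chromosome (y) by distance of the summit from the centromere in Mb (x), for LUX on the left and ELF3 on the right. Points are densities summed over 12 chromosomes, horizontal bars the distance step, vertical bars exact 95% Poisson intervals, and the dashed line the 5 Mb limit; LUX is highest at 1.13 per Mb in the first step, where ELF3 has 0.583.

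The LUX pattern was uneven between chromosomes. Chromosome 8 held 17 pericentromeric LUX regions, chromosome 6 held 14 and chromosome 10 held 13, together 44 of the 87 (50.6%). On chromosome 6 LUX density was 1.40 per Mb near the centromere (0.765 to 2.35) and 0.0951 per Mb on the rest (0.0115 to 0.343), since 14 of its 16 regions were pericentromeric. On chromosome 8 it was 1.70 per Mb (0.990 to 2.72) near the centromere and 0.498 per Mb (0.228 to 0.945) on the rest. Counted by region, these are the 2 chromosomes whose intervals do not overlap. On chromosome 10 the values were 1.30 per Mb (0.692 to 2.22) near the centromere and 0.313 (0.0853 to 0.802) on the rest. Joined within 5 kb, the pericentromeric LUX regions formed 10 loci on chromosome 8, 8 on chromosome 6 and 7 on chromosome 11. Chromosome 10 had 5 loci, as many as chromosome 2. Intervals by locus were not computed for single chromosomes, so whether any stay apart by locus is not known.

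LUX was denser near the centromere on 9 of 12 chromosomes and less dense on chromosomes 7, 9 and 12. Of these, chromosome 12 had the lowest density near the centromere relative to the rest, with 3 regions and 0.300 per Mb near the centromere (0.0619 to 0.877), against 16 regions and 0.953 per Mb (0.545 to 1.55) on the rest. Chromosome 7 had 1 pericentromeric LUX region and chromosome 4 had 2. Leaving out each chromosome in turn, the LUX density ratio stayed between 1.76 and 2.45.

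ELF3 was less dense near the centromere on all 12 chromosomes, and on 9 of them the intervals did not overlap. The exceptions were chromosome 5, with 1.20 per Mb near the centromere (0.620 to 2.10) and 1.61 on the rest (1.10 to 2.29), chromosome 11, with 0.700 (0.281 to 1.44) and 1.27 (0.812 to 1.89), and chromosome 1, with 1.60 (0.915 to 2.60) and 2.98 (2.42 to 3.63). Pericentromeric ELF3 regions were most numerous on chromosome 3, with 17, and on chromosome 1, with 16. On chromosomes 6, 8, 10 and 11 LUX had more pericentromeric regions than ELF3. Leaving out each chromosome in turn, the ELF3 density ratio stayed between 0.256 and 0.301.

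**Figure D2:**
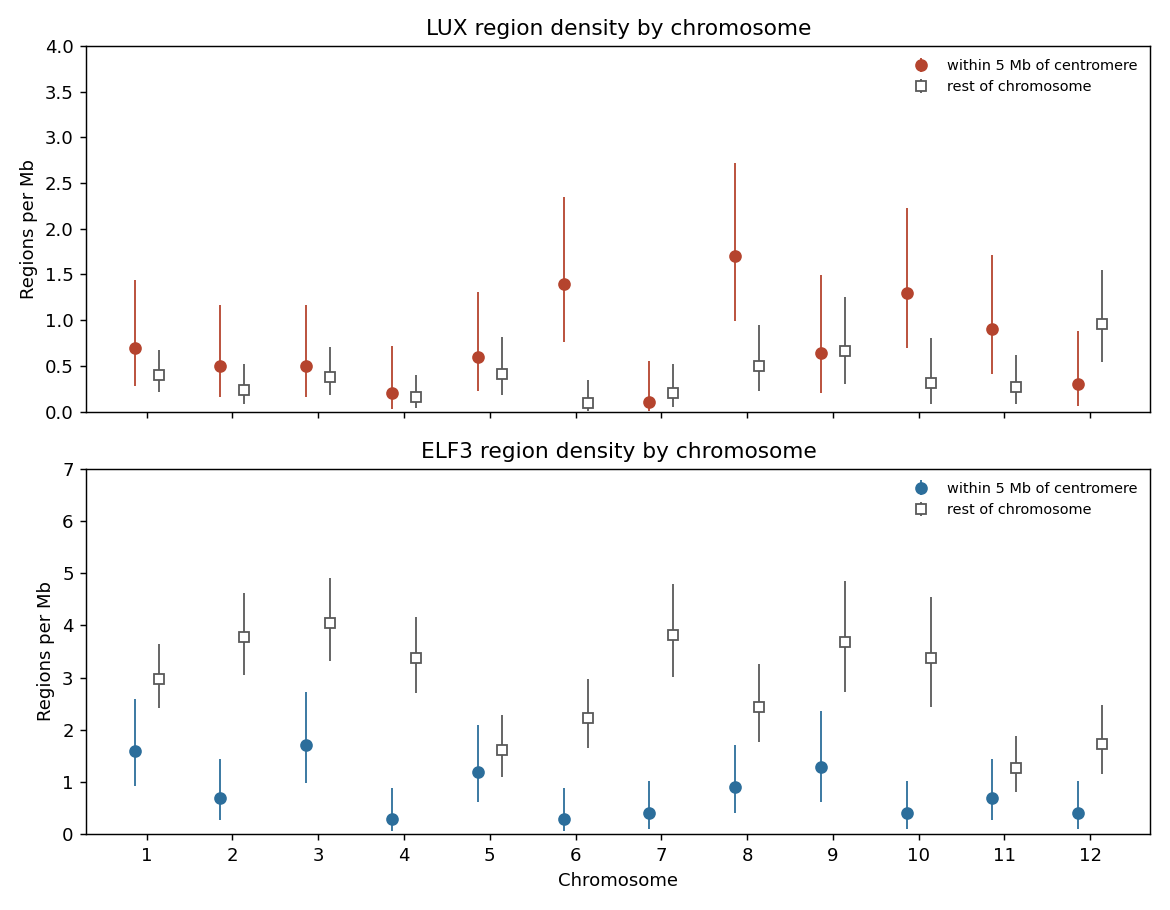
Regions per Mb (y) on each chromosome (x), for LUX above and ELF3 below. Filled circles are the windows within 5 Mb of the centromere, open squares the rest of the chromosome, and bars exact 95% Poisson intervals; ELF3 is lower near the centromere on all 12 chromosomes, and LUX is higher there on 9.

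LUX enrichment near the centromeres was modest, and its range overlapped that on the rest. Fold enrichment is the caller's ratio of the summit pileup plus 1 to the local background plus 1. Intervals on single fold values cover the counting error of the LUX or ELF3 tags and hold the background fixed. Fold enrichment ran from 1.96 to 5.36 with a median of 3.29 in the 87 pericentromeric regions, and from 2.47 to 4.61 with a median of 3.01 in the other 90. Summits held 34 to 87 tags near the centromeres (median 48) and 33 to 65 on the rest (median 39.5). Median width was 195 bp near the centromeres and 174.5 bp on the rest. A −log10 q of 10 or more was reached by 5 of 87 regions (5.75%, interval 1.89 to 12.9%), by 2 of 90 on the rest (2.22%, 0.270 to 7.80%) and by 3.95% of the whole list. Several summits were resolved in 27 of 87 regions (31.0%) near the centromeres, in 20 of 90 (22.2%) on the rest and in 26.6% of the whole list.

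The pericentromeric LUX region of highest enrichment lay on chromosome 6. At chr6:20110047-20110636, 4.81 Mb from the centromere, 80 LUX tags gave 5.36-fold enrichment (4.27 to 6.65). It was followed by chr10:4964257-4964569 with 62 tags and 4.84-fold (3.74 to 6.18) and by chr1:19823093-19823249 with 61 tags and 4.77-fold (3.67 to 6.09). These intervals overlap one another, so the order is not resolved. Chromosome 6 added an adjacent pair, chr6:13890844-13891174 with 65 tags and 4.52-fold (3.51 to 5.74), and chr6:13889775-13890329 with 56 tags and 4.38-fold (3.34 to 5.66). The other five of the 10 highest were chr8:9912799-9912972 (4.43-fold), chr11:7659489-7659665 (4.38-fold), chr11:11958550-11959306 (4.25-fold), and chr3:15158880-15159104 and chr9:2392906-2393068 (both 4.23-fold). All 10 were present in the second call, as were 58.6% of the 87 and 40.7% of the whole LUX list. That call uses the same reads, and the 10 were picked for high fold. Of the 10, 1 overlapped an ELF3 region, as did 3.45% of the 87 and 8.47% of the list.

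The LUX summits nearest to a centromere point were at chr8:12887702-12887915, 12.2 kb away, with 54 tags and 2.39-fold enrichment (1.81 to 3.10), and at chr6:15317231-15317423, 17.3 kb away, with 41 tags and 3.24-fold (2.35 to 4.36). The first was found in both calls and the second in 1. Within 1 Mb the 27 LUX regions lay on 7 chromosomes, 9 of them on chromosome 10 and 6 on chromosome 6, and 0 on chromosomes 2, 3, 4, 7 and 12. Of these 27, 19 were found in the second call (70.4%), as were 32 of the 60 from 1 to 5 Mb (53.3%). Median fold enrichment was 3.16 within 1 Mb and 3.31 from 1 to 5 Mb.

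The 5 Mb limit was set by distance alone, and whether density or enrichment changes at it was not tested. The LUX regions just inside were that on chromosome 6 at 4.81 Mb, one on chromosome 11 at 4.74 Mb (2.86-fold) and one on chromosome 8 at 4.67 Mb (2.84-fold). Just outside were regions on chromosome 3 at 5.11 Mb (3.24-fold), chromosome 8 at 5.27 Mb (3.41-fold) and chromosome 7 at 5.44 Mb (3.47-fold). For ELF3 the regions just inside lay at 4.96 Mb on chromosome 1 (2.61-fold) and at 4.85 and 4.84 Mb on chromosome 3 (2.56-fold and 3.33-fold). Those just outside lay at 5.01 Mb on chromosome 1 (2.39-fold), 5.08 Mb on chromosome 7 (4.88-fold) and 5.13 Mb on chromosome 3 (2.42-fold).

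**Figure D3:**
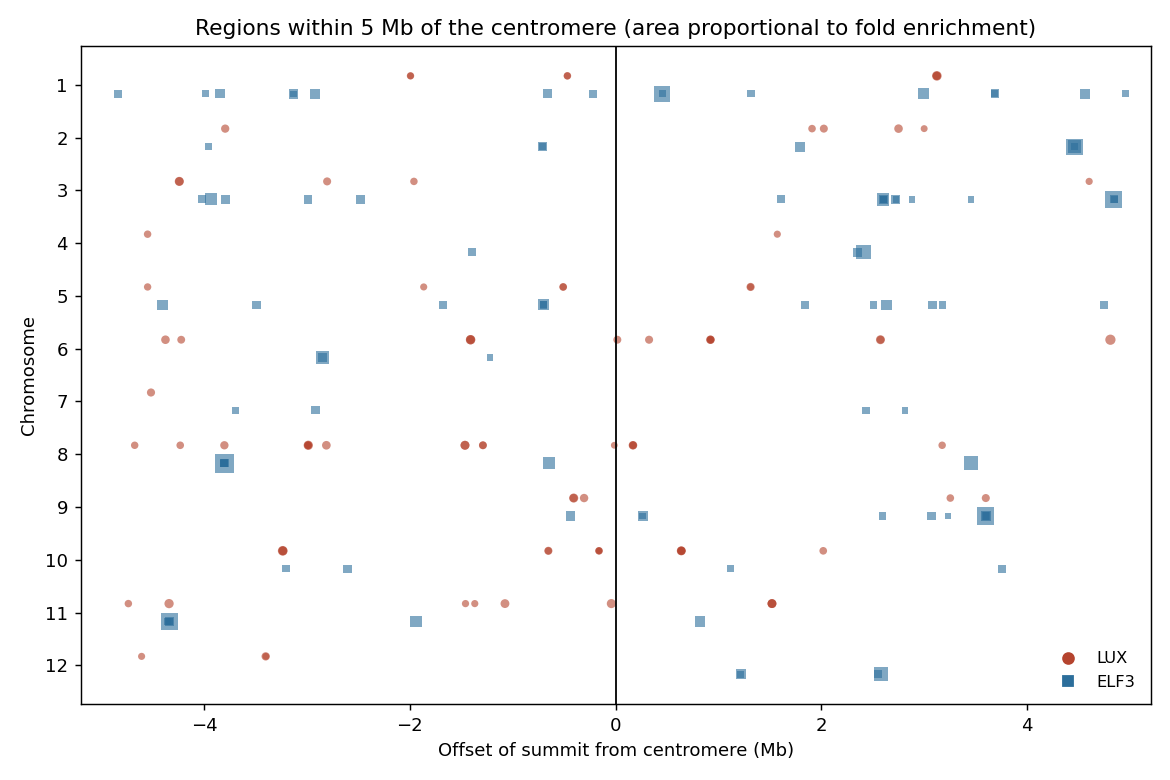
Pericentromeric regions by offset of the summit from the centromere in Mb (x, negative towards lower coordinates) on chromosomes 1 to 12 (y). Red circles are the 87 LUX regions and blue squares the 96 ELF3 regions, with an area proportional to fold enrichment; the large symbols, up to 17.95-fold, are ELF3, and LUX symbols reach 5.36-fold.

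Several pericentromeric LUX regions came in tight groups. Of the 55 LUX loci 20 held at least 2 regions and 9 held 3 or 4. Those of 4 regions were chr10:8838389-8840377, spanning 1989 bp with 2.95-fold to 4.16-fold enrichment, chr8:9910994-9912972 with 2.49-fold to 4.43-fold, and chr6:16221863-16223503 with 2.22-fold to 3.75-fold. Those of 3 were chr11:13519339-13521221, chr10:4964257-4966073, chr6:13889775-13891553, chr8:13068723-13069949, chr1:19822047-19823249 and chr10:8038457-8039516. All 9 spanned 1060 to 1989 bp and held at least 2 regions found in the second call. On the rest of the chromosomes 4 of 75 LUX loci held 3 or more regions.

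ELF3 was rare near the centromeres, but strong regions were present there. Fold enrichment ran from 2.03 to 17.95 with a median of 3.50 in the 96 pericentromeric regions, and from 1.99 to 17.8 with a median of 3.13 in the other 728. A −log10 q of 10 or more was reached by 51 of 96 (53.1%, interval 42.7 to 63.4%) near the centromeres, by 319 of 728 (43.8%, 40.2 to 47.5%) on the rest and by 44.9% of the list. Fold enrichment of 10 or more was found in 8 of 96 (8.33%, 3.67 to 15.8%) near the centromeres, in 45 of 728 (6.18%, 4.54 to 8.18%) on the rest and in 6.43% of the list. These intervals overlap. Median width was 391.5 bp near the centromeres and 412 bp on the rest, and 25 of 96 regions (26.0%) had several summits, against 215 of 728 (29.5%) on the rest and 29.1% of the list.

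The pericentromeric ELF3 region of highest enrichment was chr8:9094390-9098557, with 338 tags and 17.95-fold (16.1 to 20.0), an interval that includes the 17.8-fold of the highest region on the rest. Among the pericentromeric regions it was followed by chr3:24241094-24244080 with 288 tags and 15.3-fold (13.6 to 17.2), chr9:6398398-6401402 with 284 tags and 15.1-fold (13.4 to 16.9) and chr11:7657688-7661994 with 295 tags and 14.9-fold (13.3 to 16.7). All 4 lay 3.60 to 4.84 Mb from the centromere, in the outer part of the windows. The region at chr1:17150715-17153853 was an exception, with 13.5-fold enrichment (11.9 to 15.2) at 0.452 Mb. The other members with 10-fold or more were chr2:18059589-18061797 (13.3-fold), chr4:12113009-12114130 (11.1-fold) and chr8:16353647-16355739 (10.3-fold). The 10 highest ended with chr12:14479569-14480185 (9.75-fold) and chr6:12451831-12452792 (9.27-fold).

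ELF3 regions closest to a centromere point were chr1:16479957-16480338, 219.9 kb away with 3.56-fold enrichment (2.77 to 4.51), and chr9:3063217-3063426, 263.4 kb away with 2.34-fold (1.71 to 3.13). Both were further from a centromere point than the nearest LUX summits. The 14 ELF3 regions within 1 Mb lay on 6 chromosomes, all were found in both calls, and their median enrichment was 4.20-fold, against 3.40-fold for the 82 from 1 to 5 Mb.

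A neighbour within 5 kb was found for 44 of 96 ELF3 regions (45.8%) near the centromeres and for 443 of 728 (60.9%) on the rest, a difference that was not tested. The ELF3 loci with most regions were chr8:9091858-9101127, with 7 regions over 9270 bp, chr9:6397770-6404908, chr11:7656561-7663570 and chr3:21998453-22005196, with 4 regions each, and chr3:24241094-24246916, with 3, the longest of 3 loci of that number. Their highest enrichment was 17.95, 15.1, 14.9, 8.37 and 15.3-fold, in that order, and their lowest 2.24 to 2.76-fold. All regions of these 5 loci were found in the second call.

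LUX and ELF3 regions overlapped at 3 places near the centromeres. Both lists use the same input, so the shared places are given as each list's own values and not read as a result. An overlap of at least 1 bp was found for 3 of 87 LUX regions near the centromeres (3.45%, interval 0.717 to 9.75%), for 12 of 90 on the rest (13.3%, 7.08 to 22.1%) and for 8.47% of the list. The 3 partners are 3.13% of the 96 pericentromeric ELF3 regions, against 12 of 728 (1.65%) on the rest and 1.82% of the list. Among ELF3 regions of 10-fold or more, 3 of 8 near the centromeres overlapped LUX (37.5%, 8.52 to 75.5%). On the rest it was 10 of 45 (22.2%, 11.2 to 37.1%). In each of these comparisons the intervals overlap, and the part of the lower ELF3 density near the centromeres was not tested. At chr8:9097198-9097364 LUX had 45 tags and 3.54-fold enrichment (2.61 to 4.71) where ELF3 had 338 tags and 17.95-fold. At chr9:6398851-6399020 LUX had 42 tags and 3.31-fold (2.42 to 4.44) where ELF3 had 284 tags and 15.1-fold. At chr11:7659489-7659665 LUX had 56 tags and 4.38-fold (3.34 to 5.66) where ELF3 had 295 tags and 14.9-fold. All 3 lay between 3.60 and 4.34 Mb from the centromere, and 0 lay within 3 Mb. There the 60 LUX regions allow a share of up to about 5%, taken as 3 over the number of regions and not as an exact interval. In the second call 1 of the 61 pericentromeric LUX regions overlapped ELF3.

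Most pericentromeric LUX regions were far from ELF3. The median gap from a LUX region to the nearest ELF3 region was 644.7 kb near the centromeres and 152.3 kb on the rest, and counted by locus 631.2 kb near the centromeres and 121.1 kb on the rest. ELF3 was within 100 kb of 9 of 87 LUX regions (10.3%) near the centromeres and of 37 of 90 (41.1%) on the rest. ELF3 density was also lower near the centromeres, 0.815 against 2.91 per Mb, and its part in these gaps was not tested.

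The input background is the caller's estimate of the tags to expect at a summit. The caller takes the highest of 4 estimates: the genome-wide mean, and input tags in 10 kb, in 1 kb and in 1 fragment length around the position. The background was recovered from tags and fold enrichment, and each value above the genome-wide mean matched a whole number of input tags in 1 of the 3 local windows. The genome-wide value was 8.60 scaled tags for LUX and 14.2 for ELF3, and a summit at that value can have less input than it states. The lists differ in fragment length, so background is compared within a list.

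At LUX summits the highest background values were pericentromeric. Background exceeded the genome-wide value in 55 of 87 pericentromeric regions (63.2%, interval 52.2 to 73.3%), in 49 of 90 on the rest (54.4%, 43.6 to 65.0%) and in 58.8% of the list, and these intervals overlap. In the second call the direction turned, with 35 of 61 (57.4%) near the centromeres and 18 of 30 (60%) on the rest. A background of at least 1.5 times the genome-wide value was found in 13 of 87 regions (14.9%, 8.20 to 24.2%) near the centromeres and in 0 of 90 on the rest (0 to 4.02%). Over the list it was 7.34%. In the second call it was 6 of 61 (9.84%, 3.70 to 20.2%) near the centromeres and 0 of 30 (0 to 11.6%) on the rest, and these intervals overlap. The 13 regions belonged to 9 loci on 6 chromosomes, and 3 of them formed the locus chr10:8038457-8039516. Of the 13 regions 9 lay within 1 Mb of the centromere, as did 27 of all 87. In both calls 11 of the 13 were found, as were 51 of all 87. The median background was 1.06 times the genome-wide value near the centromeres and 1.04 times on the rest, and the highest was 3.26 times near the centromeres and 1.40 times on the rest.

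Where the background at pericentromeric LUX summits was raised, it was set mostly at the scale of 1 fragment. Input tags within a fragment length of 122 bp set the background in 39 of the 55 pericentromeric LUX regions with a raised value, and tags within 1 kb in the other 16. On the rest of the chromosomes the numbers were 25 and 24. In the second call they were 23 and 12 near the centromeres and 11 and 7 on the rest, so there most were set by 1 fragment in both parts. By distance, the background was raised in 17 of 27 LUX regions within 1 Mb (63.0%), 16 of 21 from 1 to 2 Mb (76.2%), 9 of 12 from 2 to 3 Mb (75%), 7 of 13 from 3 to 4 Mb (53.8%) and 6 of 14 from 4 to 5 Mb (42.9%). The last 3 of these steps hold under 20 regions each. Further out the share did not keep falling. It was 58.3% from 5 to 6 Mb, 54.5% from 6 to 7 Mb, 50% from 7 to 8 Mb and 40% from 8 to 9 Mb. Both of the 2 regions from 9 to 10 Mb had a raised background. From 10 to 15 Mb it was 17 of 32 regions (53.1%), from 15 to 20 Mb 5 of 6 and from 20 to 27 Mb 3 of 7. Over the whole list it was 58.8%.

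The highest input values lay on chromosome 10, 0.161 Mb from the centromere. At chr10:8038692-8039153 the input had 28 tags in a fragment length, 3.26 times the genome-wide value, and 76 LUX tags gave 1.96-fold enrichment (1.55 to 2.44), the lowest of all pericentromeric LUX regions. Beside it, chr10:8039265-8039516 had 21 input tags and 87 LUX tags, the highest LUX tag number near a centromere, with 2.95-fold enrichment (2.37 to 3.62). The third was chr12:8500456-8500759, with 18 input tags, 62 LUX tags and 2.45-fold enrichment (1.89 to 3.12). At these summits input and LUX were both high.

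Raised input went with more LUX tags and lower fold enrichment among the pericentromeric LUX regions. The background is the denominator of the fold, and a summit over a higher background needs more tags to be called. The 13 regions with at least 1.5 times background had a median of 54 tags and 2.54-fold enrichment. The 32 at the genome-wide background, on 11 chromosomes, had a median of 44 tags and 3.47-fold enrichment, and 17 of them were found in both calls. At these 32 the input was not above the genome-wide value at any of the 3 local scales. That value rests on an effective genome size of 210 Mb, below the 367.6 Mb span, so it is high relative to a mean over the span. Input at these regions can therefore still exceed a mean over the span. The part of repeat copy number, or of a difference between the tagged line and the wild-type input, was not tested.

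At ELF3 summits the share with raised background was not higher near the centromeres than on the rest. Background exceeded the genome-wide value in 30 of 96 pericentromeric regions (31.3%, interval 22.2 to 41.5%), in 284 of 728 on the rest (39.0%, 35.4 to 42.7%) and in 38.1% of the list. At least 1.5 times was reached by 1 of 96 (1.04%, 0.0264 to 5.67%) near the centromeres, by 13 of 728 (1.79%, 0.954 to 3.03%) on the rest and by 1.7% of the list. The 1 region was chr2:12888574-12889676, 0.711 Mb from the centromere, with 26 input tags in a fragment length of 202 bp, 129 ELF3 tags and 3.89-fold enrichment (3.25 to 4.61). The next highest values were 21 input tags at chr9:6401596-6402739 (4.88-fold) and 20 each at chr7:14915964-14916187 (2.12-fold) and chr5:7998287-7998805 (5.73-fold). The chromosome 7 region was the 1 pericentromeric ELF3 region missing from the second call, and the other three were found in it. The median background equalled the genome-wide value both near the centromeres and on the rest.

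**Figure D4:**
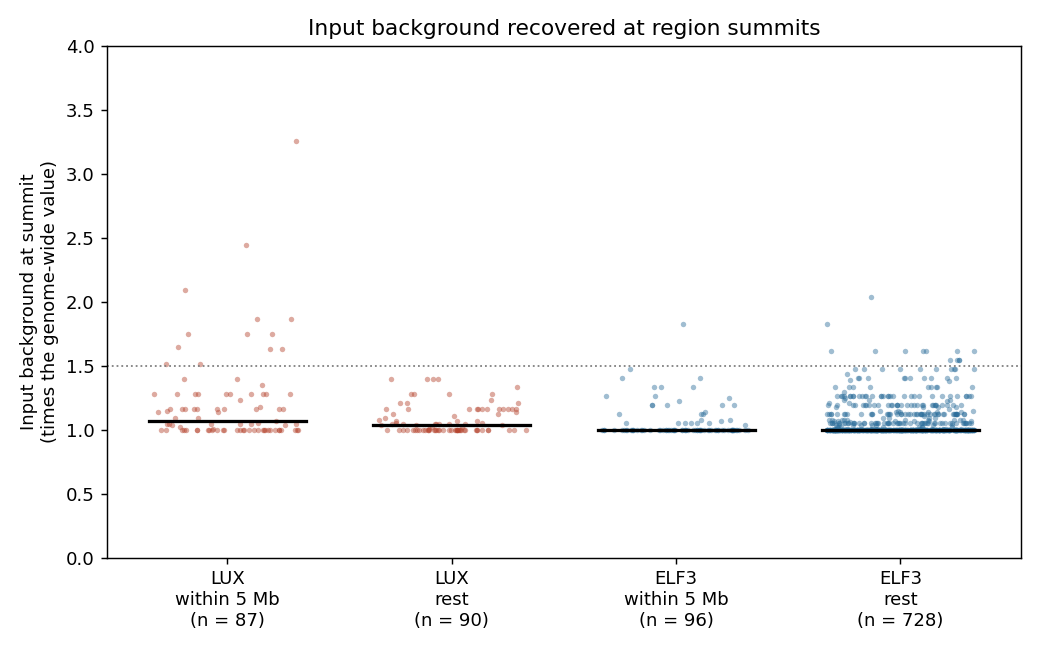
Input background at the summit, in multiples of the genome-wide value (y), for LUX and ELF3 regions within 5 Mb of a centromere and on the rest of the chromosomes (x). Each point is a region, black lines are medians and the dotted line marks 1.5 times; 13 of 87 pericentromeric LUX regions lie at or above it, against 0 of 90 on the rest.

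**Figure D5:**
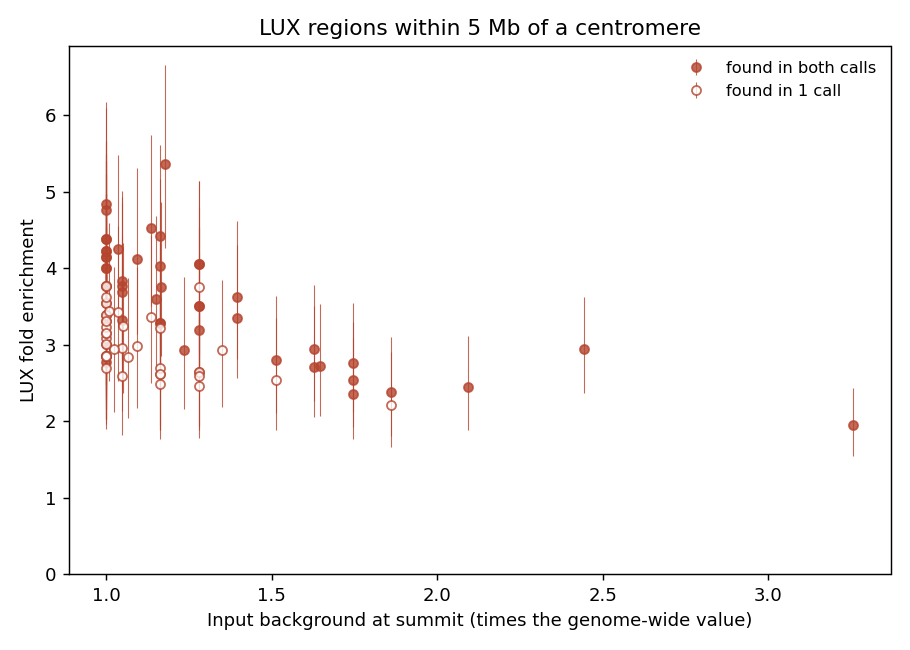
LUX fold enrichment (y) against input background in multiples of the genome-wide value (x) for the 87 pericentromeric LUX regions. Bars are exact 95% Poisson intervals on LUX tags, filled points were found in both calls and open points in 1; the point furthest right, at 3.26 times, has the lowest enrichment, 1.96-fold.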

How the data were processed

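Per the file headers, the authors called peaks with MACS 2.2.7.1 for 1 LUX and 1 ELF3 library against 1 input library, with summit splitting, q-values up to 0.05, 1 tag kept per position and an effective genome size of 210 Mb. BWA, deepTools and the build IRGSP-1.0 are named per the submitters' processing notes; the read filter is not given in the sources used here. Each library has 2 deposited calls, with a lower model fold bound of 2 (fragment length 122 bp for LUX, 202 bp for ELF3) or 5 (76 and 197 bp); the first was used. The deposited pileup is a coverage signal in extended tags, with the larger library scaled to the smaller. The deposited fold enrichment is a ratio. The −log10 of p and of q, as deposited, come from the caller. The deposited region length is in bp.

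Lines sharing start and end were joined to 1 region. Dividing the pileup by the scale (0.734 for LUX, 0.806 for ELF3) gave whole tags to within 0.01, and the background is scaled tags plus 1, over fold enrichment, minus 1. A background more than 0.01 scaled tags above the genome-wide value counted as raised. The effective genome size is below the 367.6 Mb span, so the genome-wide value is high relative to a mean over the span. Chromosome ends are the furthest peak of any table. Intervals are exact 95% Clopper-Pearson (shares) or Poisson (tags, densities), for counting error only; the ratio of densities uses the exact binomial interval. Intervals on fold enrichment leave out the counting error of the input. Window assignment and background recovery were run on simulated peaks built with the same formula, so this checks the arithmetic only. Simulated summits lay only at higher coordinates than the centromere. The matching of background to a local window was not simulated. Members, lists and comparisons were chosen with earlier results of these data known. Regions named are the 10 highest by fold, the 3 of highest background, the 2 nearest a centromere and the 3 on each side of the limit per list, all shared regions, LUX loci of 3 or more and the 5 largest ELF3 loci. The planned search for genes and motifs was not made, since the annotation is of another assembly. Software was Python 3.11.15 with scipy 1.17.1, pandas 2.3.3, matplotlib 3.10.9 and numpy 2.4.6.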

Additional observations from a re-analysis of the deposited data

Results flagged for a closer look

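The lists moved in opposite directions near the centromeres. The ratio of density near the centromeres to density on the rest was 2.05 for LUX and 0.280 for ELF3. The difference between the lists was not tested, since each is 1 library.

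Outside the call used throughout, the second LUX call held 5 pericentromeric regions that overlap no LUX region of the first, out of 10 such regions in all, with 2.88-fold to 4.20-fold enrichment.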

How the results depend on the processing

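Neither list's density ratio crossed 1 under any alternative run. For LUX, the second call gave 67.0% pericentromeric, a ratio of 4.31, a median fold of 3.81 and a median background of 5.93 scaled tags, which scales with fragment length. A −log10 q of at least 3 gave 57.0%, a ratio of 2.81 and a median fold of 3.54. Regions found in both calls gave 70.8%, 5.15 and 3.60. For ELF3 the second call gave a median background of 13.9 scaled tags. With windows of 3 and 2 Mb the LUX share was 33.9% and 27.1% and the ELF3 share 5.95% and 3.03%, beside 19.5% and 13.1% of the length, and the ELF3 ratio at 2 Mb was 0.208. Overlapping pericentromeric LUX regions numbered 1 in the second call and 0 at 3 and at 2 Mb. With raised background defined as 1.5 times, shares were 14.9% for LUX and 1.04% for ELF3. The cause of the differences between calls was not tested. The other 167 of 188 values stayed within the interval of the value reported, or within 1.5 times for the overlap count. Leaving out single chromosomes other than 9, and regions found in both calls, were chosen after seeing the data. No sequence lengths of the build were used, so that alternative for the chromosome end is the one reported. No paired analysis was possible because each group has 1 library and no result comes from a test between samples. Each 1 Mb step from 2 to 10 Mb held 2 to 14 LUX regions, and differences between steps were not tested.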
